A study of Homo sapiens with 14 samples.

Results

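The 8 genes described here are PER1, PER2, PER3, CRY1, CRY2, CLOCK, BMAL1 and BHLHE40, which encode core parts of the mammalian circadian clock. They were chosen by name, and every binding region that lay in the RefSeq span of a gene or within 50 kb of it was collected from 4 deposited lists. The 8 windows held 256 of the 227513 regions on chromosomes 1 to 22 and X. The data are chromatin immunoprecipitation sequencing (ChIP-seq) of T47D, an established breast cancer line with estrogen and progesterone receptors. All cells grew in medium with fetal bovine serum and insulin, and were given ethanol vehicle or progesterone (P4, dose not in the labels) for 1 h. Chromatin was precipitated with an antibody against the progesterone receptor (PR) or against POLR3A, with 3 replicates in each of the 4 groups and 1 pooled input per treatment. Each group is represented by 1 list, so no value below has a replicate check and no test between groups was possible. The line cannot be checked against its markers here, since the lists hold no expression values, and they come from a single line.

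In the circadian clock, CLOCK and BMAL1 bind as a pair to E-box motifs and switch on the PER and CRY genes, whose proteins then hold that pair back. BHLHE40 is a repressor that also acts at E-boxes. PR is a nuclear receptor that binds DNA at steroid response elements when it holds progesterone, and POLR3A is the largest, catalytic subunit of RNA polymerase III, the enzyme that transcribes tRNA genes and other short RNAs.

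The PR lists held 43 regions near the 8 genes under vehicle and 121 under P4, and the POLR3A lists held 34 and 58. PER1 had 12 PR regions under vehicle and 23 under P4, BHLHE40 had 11 and 26, CRY2 had 10 and 35, and PER2 had 6 and 14. CRY1 had 2 and 13, CLOCK 1 and 7, PER3 1 and 1, and BMAL1 0 and 2. For POLR3A under vehicle and P4, PER1 had 9 and 15 regions, CRY2 12 and 17, BHLHE40 6 and 14, PER2 4 and 8, CRY1 2 and 2, CLOCK 1 and 2, and PER3 and BMAL1 none in either list. At least 1 PR region lay near 7 of the 8 genes under vehicle and near 8 under P4, and the same was true of 74.6% and 90.5% of 19821 protein-coding genes. At least 1 POLR3A region lay near 6 of the 8 in each list, against 68.7% of protein-coding genes under vehicle and 71.9% under P4. Having a region was therefore about as common among the clock genes as among coding genes at large.

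The genes differed from each other in density. The median protein-coding gene had 1.51 PR regions per 100 kb of window under vehicle and 5.28 under P4. PER1 had 10.7 and 20.5, more than 96.7% and 90.9% of protein-coding genes. BHLHE40 had 10.4 and 24.6, and CRY2 had 7.35 and 25.7. PER2 was nearer the middle with 3.85 and 8.97, and CRY1 had 0.989 and 6.43. CLOCK had 0.457 and 3.20, PER3 0.622 in both lists, and BMAL1 0 and 0.95, all below the coding medians. For POLR3A the medians were 0.971 and 1.72 per 100 kb. PER1 with 8.04 and 13.4, CRY2 with 8.82 and 12.5, and BHLHE40 with 5.67 and 13.2 again stood highest of the 8. The same 3 genes thus led all 4 lists, and PER3, CLOCK and BMAL1 were lowest for PR under P4. The PER1 density came mostly from the flanks: within 10 kb of the gene PER1 had 5 PR regions in each list, and inside the gene it had 2 under vehicle against 1 under P4. For POLR3A it had 1 and 4 within 10 kb and 0 in the gene in both lists.

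**Figure D1:**
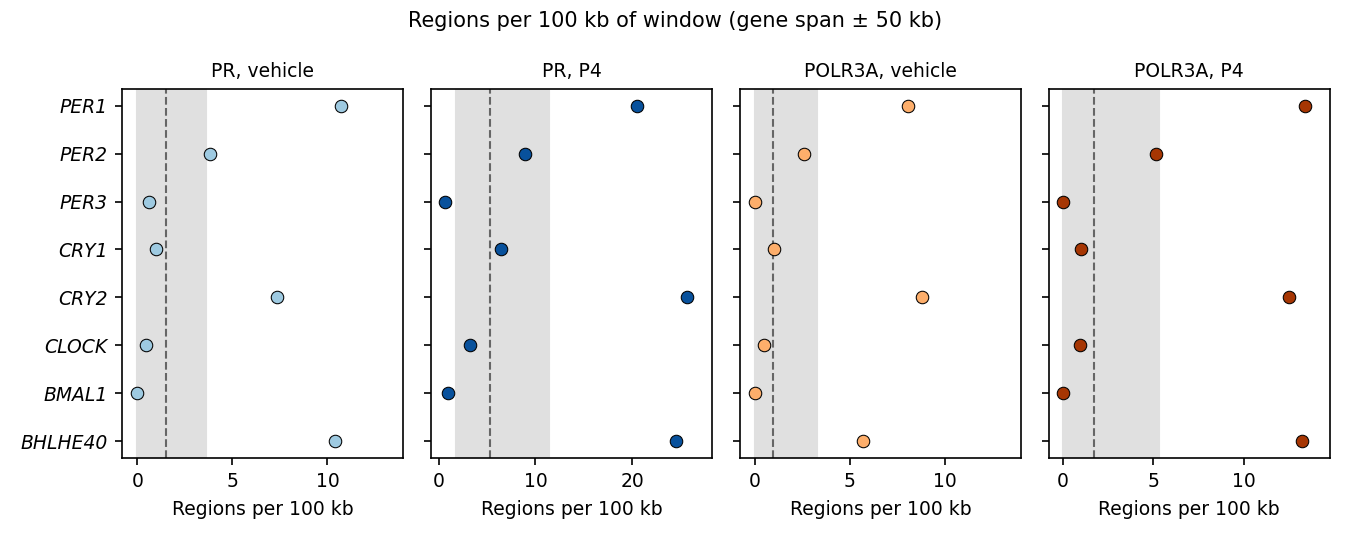
Regions per 100 kb of window (x axis, 1 panel per list, scales differ) for each of the 8 genes (y axis); the dashed line is the median and the grey band the middle 50% range of all protein-coding genes. PER1, CRY2 and BHLHE40 lie to the right of the band in every panel, from 5.67 to 25.7 regions per 100 kb, and PER3 and BMAL1 lie at 0 in both POLR3A panels.

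The P4 lists are longer than the vehicle lists, with 111515 against 38933 PR regions and 47904 against 29161 POLR3A regions. Most of the difference in counts near the clock genes moved with that length. When the PR P4 list was reduced to its 38933 regions of lowest q-value, the 8 genes held 43 PR regions under vehicle and 43 under P4. PER1 then had 12 under vehicle and 9 under P4, and CRY2 10 and 7, so their order turned. CRY1 kept more under P4, 2 against 4, as did CLOCK, 1 against 4, and BHLHE40, 11 against 12. PER2 had 6 and 6, PER3 1 and 1, and BMAL1 0 and 0. The POLR3A total at equal length was 34 under vehicle and 32 under P4. A gain or loss of regions at these genes cannot be told apart from a difference in how many regions were called.

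**Figure D2:**
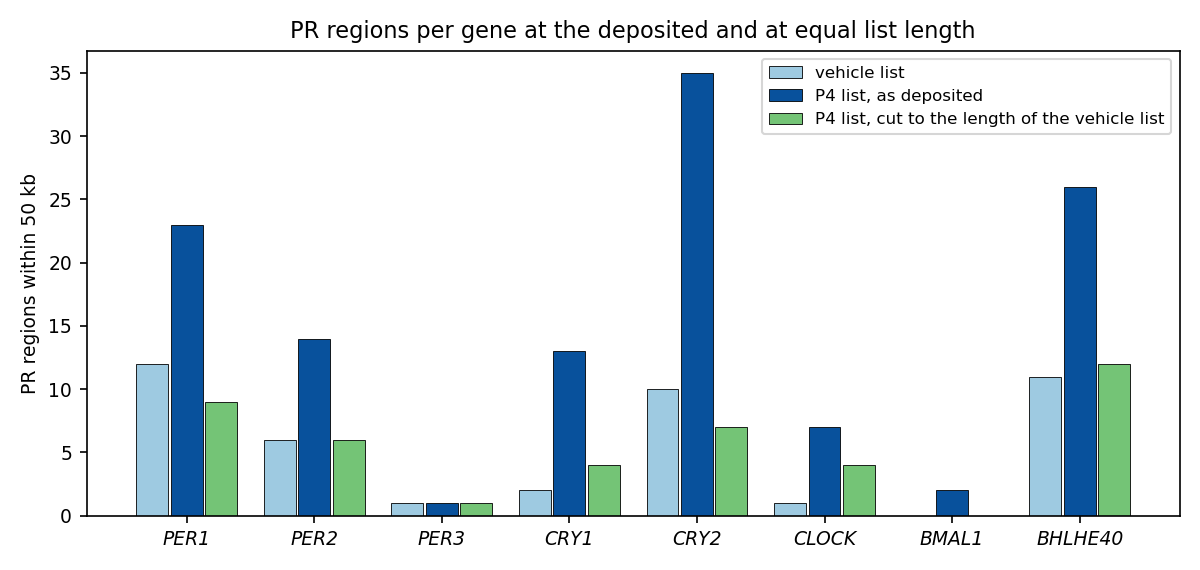
PR regions within 50 kb (y axis, counts) of each of the 8 genes for the vehicle list, the P4 list as deposited and the P4 list reduced to the length of the vehicle list. PER1 goes from 12 to 23 in the deposited lists and to 9 at equal length, and CRY2 from 10 to 35 and to 7.

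PER1 encodes a period protein of the repressing arm. It lies on chromosome 17 of GRCh38 at 8140472 to 8152404, on the minus strand, and its window of 111.9 kb also holds the coding genes ALOXE3, HES7, VAMP2, TMEM107 and BORCS6. Its strongest PR region, by the q-value the authors' peak caller gave, was inside the gene just past the start. Scores here are −log10 q, so a higher score is a lower q-value, and fold is the enrichment the caller reported. Under vehicle that region spanned chr17:8151745-8152092, with a fold of 17.5 and a score of 68.9. Under P4 it spanned chr17:8151607-8152181, with a fold of 18.1 and a score of 98.5. The summits lay 493 bp and 489 bp downstream of the gene's 5′ end, 4 bp apart, and the regions ranked 2260 of 38933 and 4623 of 111515. A second region upstream scored 21.8 under vehicle (fold 8.25) and 41.1 under P4 (fold 11.7), with summits 2074 bp and 2047 bp before the 5′ end. Neither region overlapped a POLR3A region of the same treatment. A POLR3A region of the P4 list at chr17:8153995-8154256, of score 5.63, reached the edge of the upstream region as called under vehicle. The PER1 promoter lies between them and held no base of any region in the 4 lists. Its 250 bases upstream of the start, at chr17:8152405-8152654 on the minus strand (RefSeq, GRCh38.p14), are shown because they hold the E-box CACGTG, in capitals, 173 bp before the start.
PER1 promoter: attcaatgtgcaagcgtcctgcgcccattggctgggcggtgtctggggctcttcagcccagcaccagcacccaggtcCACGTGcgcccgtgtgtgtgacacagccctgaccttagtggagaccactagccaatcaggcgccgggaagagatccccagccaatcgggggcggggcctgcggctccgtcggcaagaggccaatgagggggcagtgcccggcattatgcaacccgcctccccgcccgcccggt

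No POLR3A region lay in the PER1 gene itself in either list. The polymerase was found instead on the tRNA genes to both sides of it. Of the nuclear tRNA genes in the RefSeq table, 11 lay in the PER1 window and none in the other 7 windows. At least 1 tRNA gene lay near 1.78% of protein-coding genes, and at least 11 lay near 0.0807% of them, which is 16 genes. Each tRNA gene was called occupied if a region reached it or the 100 bp on either side. POLR3A regions reached 11 of 11 in both lists, against 82.3% of all 429 nuclear tRNA genes under vehicle and 81.8% under P4. The 11 genes were covered by 4 broad POLR3A regions in each list.

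The highest of these 4 lay downstream of PER1 and covered TRK-TTT3-5, TRQ-CTG1-5, TRL-TAG1-1 and TRR-TCT2-1, tRNA genes for lysine, glutamine, leucine and arginine. It spanned chr17:8118453-8121313 under vehicle with a score of 582 and a fold of 93.3, and chr17:8118874-8121338 under P4 with a score of 554 and a fold of 79.4. These ranked 19th and 16th in their lists. The region on TRG-GCC2-6, for glycine and inside HES7, scored 489 under vehicle and 513 under P4. The region on TRS-CGA1-1 and TRT-AGT5-1, for serine and threonine, scored 448 and 467. It was the POLR3A region nearest to PER1, and ended 686 bp from the 3′ end of the gene under vehicle and 663 bp under P4. Upstream of PER1, 1 region covered TRW-CCA3-3, TRS-GCT4-3, TRT-AGT1-1 and TRI-AAT5-5, for tryptophan, serine, threonine and isoleucine, and scored 516 and 491. The scores of the 4 regions stood between 448 and 582 in the vehicle list and between 467 and 554 in the P4 list.

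Away from tRNA genes the POLR3A regions near the 8 clock genes were weak. The 30 others under vehicle had a median score of 3.12, and the 54 others under P4 a median of 2.98. The medians of the whole POLR3A lists were near these, at 3.53 and 3.22, so low scores were common throughout the lists. The strongest of them lay in TMEM107 on SNORD118, the gene of the U8 small nucleolar RNA. That region scored 15.7 under vehicle at chr17:8173408-8173715 and 14.8 under P4 at chr17:8173327-8173648. A PR region of score 5.11 overlapped it under P4, and none did under vehicle. In either list the scores of the 4 tRNA regions of PER1 were all above those of the remaining POLR3A regions near the clock genes. The same comparison of scores over the whole lists is not given here. Over the whole lists, 1.01% of vehicle and 0.616% of P4 POLR3A regions were at tRNA genes.

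PR was also found on or beside tRNA genes around PER1. PR regions reached 5 of the 11 under vehicle and 8 under P4, against 12.8% and 26.1% of all 429 nuclear tRNA genes. The highest PR score at a tRNA gene was on TRQ-CTG1-5, 14.9 under vehicle and 70.2 under P4. TRL-TAG1-1 scored 4.24 and 10.5. TRT-AGT1-1 and TRI-AAT5-5 were reached by 1 PR region in each list, of score 7.14 under vehicle and 49.4 under P4. The P4 region touched TRI-AAT5-5 itself but only the bases beside TRT-AGT1-1. Its summit lay 388 bp from that of this vehicle region. A second vehicle region, also of score 7.14, had its summit 44 bp from the P4 summit and reached no tRNA gene. The first vehicle region also reached the bases beside TRS-GCT4-3, and the P4 region did not. TRK-TTT3-5 at 3.04, TRR-TCT2-1 at 4.87, TRS-CGA1-1 at 3.36 and TRW-CCA3-3 at 5.39 were reached by PR in the P4 list alone. At TRK-TTT3-5 and TRW-CCA3-3 only the bases beside the gene were reached. The P4 region at TRR-TCT2-1 overlapped a vehicle region of score 3.84, with summits 5 bp apart. That vehicle region lay beyond the 100 bp beside the gene, so PR was present close by under vehicle too. TRG-GCC2-6 and TRT-AGT5-1 had no PR region in either list. At equal list length PR reached 5 of the 11 under vehicle and 4 under P4, so the higher count under P4 also moved with list length. PR summits were rarely on a tRNA gene: 1 was inside one under vehicle (TRQ-CTG1-5) and 0 under P4, whereas 4 POLR3A summits were inside one in each list. tRNA genes exist in near-identical copies, and how the authors treated reads that map to several of them is not given in the sources used here.

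**Figure D3:**
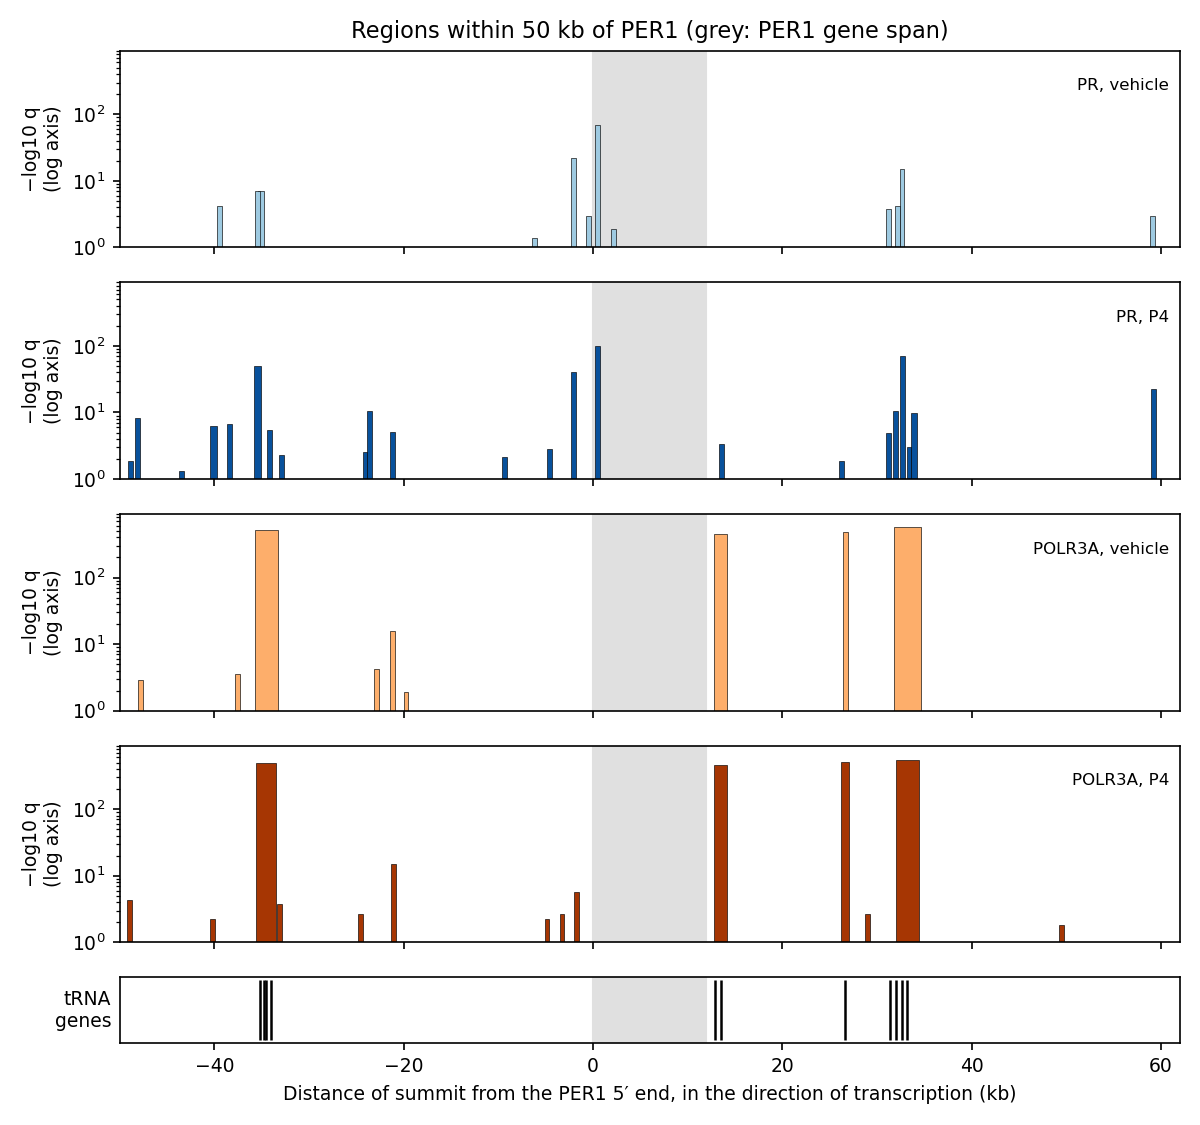
Score (−log10 q, log axis) of every region within 50 kb of PER1 against the distance of its summit from the gene's 5′ end (kb, direction of transcription), 1 panel per list, bar width the region's width with a minimum drawn width; the lowest panel marks the 11 tRNA genes and grey is the PER1 span. The 4 POLR3A bars of 448 to 582 sit on the tRNA genes in both POLR3A panels, and the highest PR bar (68.9 under vehicle, 98.5 under P4) sits inside PER1.

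PER2 encodes the second period protein and lies at chr2:238244044-238300065 on the minus strand. It held the strongest PR region of all 8 genes. Under vehicle that region spanned chr2:238285556-238286942 inside the gene, with a fold of 40.5 and a score of 293, and ranked 179 in the list, within its top 0.460%. Under P4 it spanned chr2:238285450-238287473, with a fold of 64.4 and a score of 451, and ranked 55, within the top 0.0493%. The summits were 12 bp apart and lay 2799 bp and 2787 bp downstream of the start that the RefSeq promoter table gives, itself inside the annotated span. A weak POLR3A region overlapped it in each list, of score 4.19 under vehicle and 3.17 under P4, but at different places. The vehicle POLR3A summit lay 2798 bp downstream of that start, near the PR summit. The P4 POLR3A summit lay 1076 bp downstream of it, at the edge of the PR region. Neither POLR3A region had a counterpart under the other treatment. At the outer 5′ end of the span a second PR region scored 9.47 under vehicle and 42.2 under P4. In the P4 list 12 of the 14 PR regions lay inside PER2, so binding there was mostly within the gene. The highest POLR3A score near PER2 was 7.87 in the vehicle list, on a region also inside the gene, and 3.72 in the P4 list.

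PER3, the third period gene, lies at chr1:7784291-7845177 on the plus strand and had a single PR region in each list. It fell in the neighbouring gene CAMTA1, 38.1 kb from PER3. It scored 35.0 under vehicle at chr1:7745930-7746198 and 99.8 under P4 at chr1:7745859-7746223, with folds of 11.3 and 21.2 and summits 28 bp apart. No PR region touched PER3 itself. The nearest POLR3A region was 145.1 kb from the gene under vehicle and 828 kb under P4.

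CRY1 and CRY2 encode the cryptochromes, which repress CLOCK and BMAL1 together with the period proteins. They differed in PR binding. At CRY1 (chr12:106991364-107093549, minus strand) the strongest PR region was deep in the gene, 70.1 kb downstream of the 5′ end. It scored 24.9 under vehicle at chr12:107023342-107023602 and 26.6 under P4 at chr12:107023330-107023605. Of the 13 CRY1 regions under P4, 11 had no counterpart under vehicle, and the highest of those scored 11.3. Most regions of the longer P4 list had none either, since 25.8% of the whole list had a vehicle counterpart.

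At CRY2 (chr11:45847118-45883244, plus strand) the strongest PR region lay near the start. It scored 51.4 (fold 10.2) under vehicle at chr11:45848119-45849039 and 123 (fold 21.1) under P4 at chr11:45848229-45849102, with summits 1532 bp and 1538 bp downstream of the 5′ end. A second region in the gene scored 37.2 and 74.4, and a region in the neighbouring SLC35C1, which encodes a GDP-fucose transporter, scored 34.5 and 94.0. A region in MAPK8IP1, a scaffold of the JNK pathway, scored 30.7 in the P4 list and had no vehicle counterpart. The first of the promoters that RefSeq gives for CRY2 was itself under regions of low score. Of the 250 bases upstream of its start, 163 lay in a PR region under vehicle (score 3.09), 250 in one under P4 (score 4.67), 188 in a POLR3A region under vehicle (score 3.14) and 0 in one under P4. The second CRY2 promoter was mostly free of regions. Of the 250 bases upstream of its start, 11 lay in a PR region under vehicle and 61 under P4, and 0 in a POLR3A region in either list. The 250 bases of the first promoter, at chr11:45846868-45847117 on the plus strand (RefSeq, GRCh38.p14), are shown with the ones in the vehicle PR region in capitals.
CRY2 promoter: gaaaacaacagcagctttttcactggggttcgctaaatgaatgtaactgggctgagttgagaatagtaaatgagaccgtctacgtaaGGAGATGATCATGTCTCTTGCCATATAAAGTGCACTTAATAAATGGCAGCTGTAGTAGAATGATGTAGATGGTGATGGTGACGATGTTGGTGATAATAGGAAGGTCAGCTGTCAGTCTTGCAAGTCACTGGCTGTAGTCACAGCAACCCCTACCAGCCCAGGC

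CLOCK and BMAL1 encode the activating pair and had few regions. At CLOCK (chr4:55427903-55546909, minus strand) the strongest PR region lay at the far end of the gene, where the annotation also places TMEM165. It scored 6.60 under vehicle at chr4:55435191-55435393 and 35.3 under P4 at chr4:55435139-55435515, 111.6 kb and 111.5 kb downstream of the 5′ end. No PR region lay within 1 kb of a CLOCK start. At BMAL1 (chr11:13276652-13387266, plus strand) the PR P4 list had 2 regions, both inside the gene, of score 5.93 at chr11:13336564-13336783 and 6.65 at chr11:13344346-13344576. The nearest PR region under vehicle was 279.9 kb from BMAL1. The nearest POLR3A regions were 945.5 kb away under vehicle and 1139 kb under P4.

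BHLHE40 lies at chr3:4979437-4985323 on the plus strand, and no other coding gene shares its window. Its strongest PR region was downstream of the gene. It scored 115 (fold 23.1) under vehicle at chr3:4992375-4992875 and 189 (fold 31.0) under P4 at chr3:4992320-4992884, with summits 23 bp apart, 13.3 kb and 13.2 kb downstream of the 5′ end. Closer to the gene's 3′ end a region scored 4.32 under vehicle and 70.0 under P4, and a region about 3 kb upstream scored 9.47 and 36.7. All 11 vehicle PR regions of BHLHE40 overlapped a P4 region, against 75.7% of the whole vehicle list. POLR3A regions there were weak, with a highest score of 4.32 under vehicle and 6.39 under P4. The 250 bases upstream of the BHLHE40 start, at chr3:4979187-4979436 on the plus strand (RefSeq, GRCh38.p14), held no base of any region. They are shown because they carry the only other perfect E-box among the clock gene promoters, in capitals, 245 bp before the start.
BHLHE40 promoter: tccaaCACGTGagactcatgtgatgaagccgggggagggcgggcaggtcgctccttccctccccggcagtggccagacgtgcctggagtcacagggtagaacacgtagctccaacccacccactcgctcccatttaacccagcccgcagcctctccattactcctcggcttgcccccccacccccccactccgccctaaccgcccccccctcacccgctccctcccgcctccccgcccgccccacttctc

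**Figure D4:**
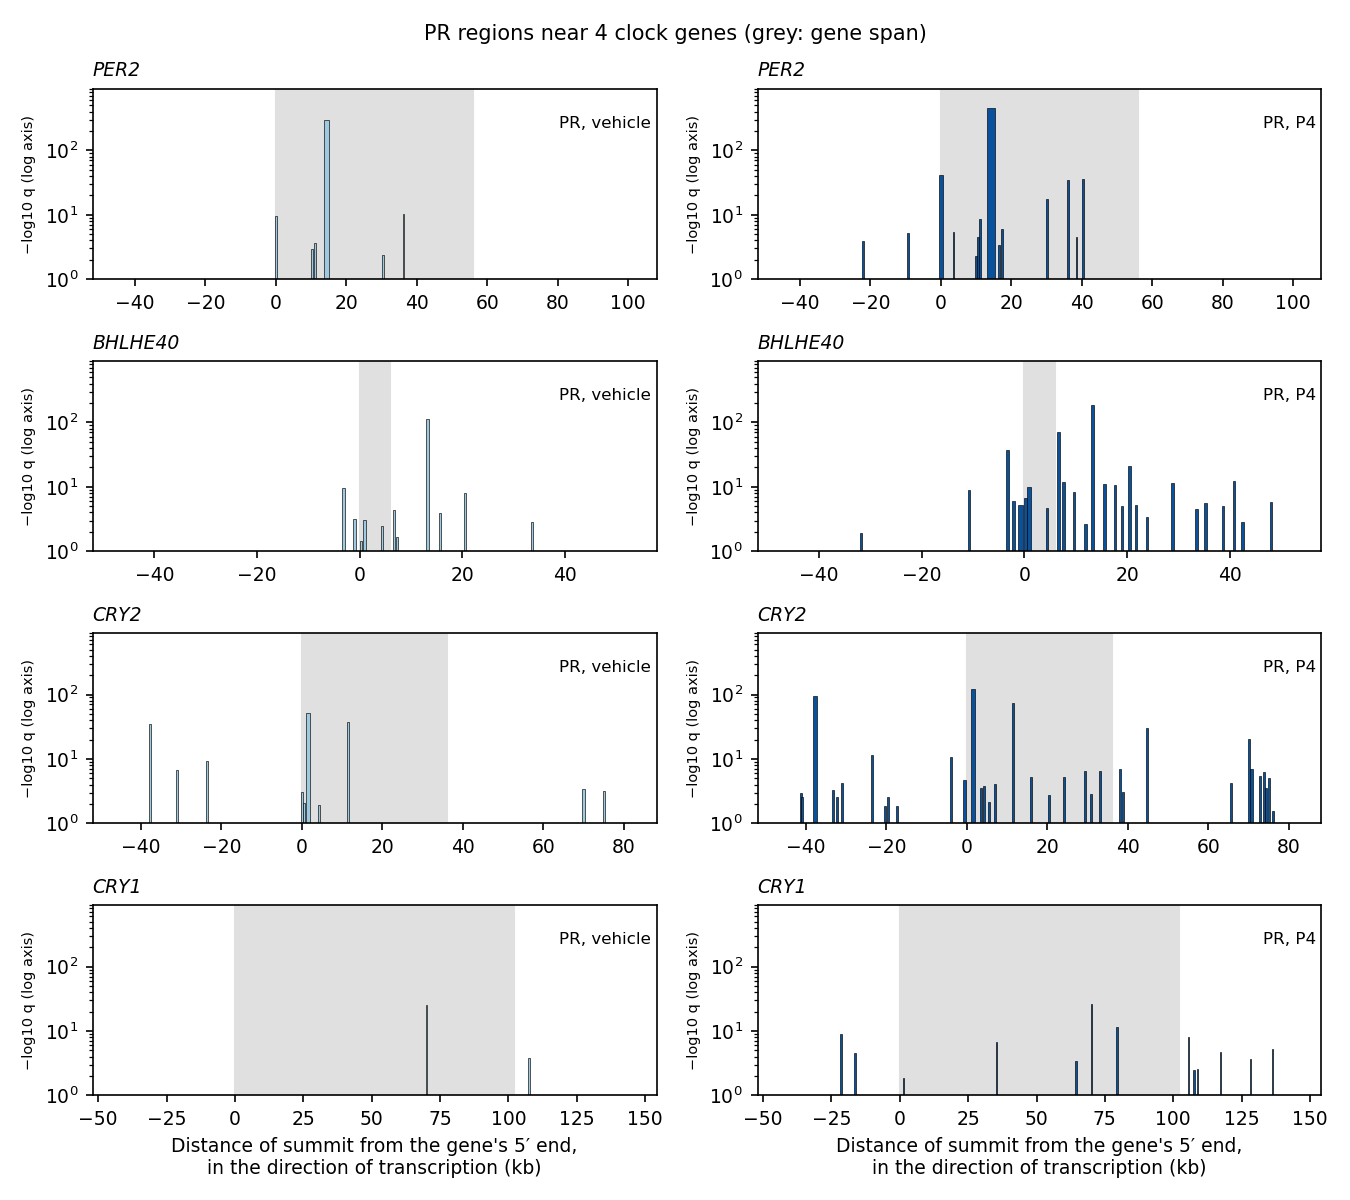
Score (−log10 q, log axis) of PR regions near PER2, BHLHE40, CRY2 and CRY1 (rows) under vehicle (left) and P4 (right) against the distance of the summit from the gene's 5′ end (kb, direction of transcription), grey the gene span, bar width the region's width with a minimum drawn width. The highest bar of each gene stands at nearly the same place in both columns: 293 and 451 in PER2, 115 and 189 downstream of BHLHE40, 51.4 and 123 in CRY2, and 24.9 and 26.6 in CRY1.

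Strong PR regions lay near several of the clock genes. A PR region of score 50 or more, a threshold chosen after the values were seen, lay near 4 of the 8 genes under vehicle (PER1, PER2, CRY2 and BHLHE40), against 18.7% of protein-coding genes. Under P4 it lay near 5, PER3 being added, against 41.7%. Close to the starts, a PR region lay within 1 kb of a RefSeq start of PER1, PER2, CRY2 and BHLHE40 in each list. That is 4 of 8 genes, against 22.7% of 15813 coding genes with a promoter sequence under vehicle and 48.4% under P4, so under P4 the share was near the background. A POLR3A region lay within 1 kb of a start of PER2, CRY1 and CRY2 under vehicle, which is 3 genes against 30.6%, and of PER2, CLOCK and BHLHE40 under P4, 3 genes against 32.8%.

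The 12 RefSeq promoters of the 8 genes, each 250 bases before to 50 after the start, were searched on both strands for 3 motifs. The E-box CACGTG was in 2 of them, those of PER1 and BHLHE40, and in 7.26% of all 35116 promoters. The shorter steroid receptor site AGAACA was in 1, that of BHLHE40, and in 14.8% of all. The core of the full steroid receptor element, ACANNNTGT, was in 0 of the 12 and in 5.37% of all. AGAACA ends in the letters that open ACANNNTGT, so 1 site could match both. The strongest PR region of each gene lay outside these windows.

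The strongest PR regions were found under both treatments. Of the 43 vehicle PR regions near the clock genes, 39 overlapped a P4 region, which is 90.7% (95% Wilson interval 78.4 to 96.3, counting error over regions only) against 75.7% of the whole list. PER1, CRY2 and BHLHE40 gave 9, 9 and 11 of them, so the regions are clustered and the interval is no test against the whole list. Among the 121 PR regions under P4, 39 had a vehicle counterpart, 32.2% (24.6 to 41.0) against 25.8%. The P4 regions with a vehicle counterpart had a median score of 17.6, and the 82 without one had a median of 5.05 and a highest score of 36.5. Of these 39, 26 had a summit within 50 bp of one under the other treatment, and the largest shift was 670 bp. For POLR3A the count was 6 of 14. For POLR3A, 12 of 34 vehicle regions (35.3%, 21.5 to 52.1) and 14 of 58 P4 regions (24.1%, 15.0 to 36.5) had a counterpart, against 42.0% and 25.8% of the whole lists. The POLR3A regions without a counterpart were all weak, with highest scores of 4.46 under vehicle and 6.10 under P4. Scores by counterpart and summit shifts are not given for the whole lists, so these values describe the clock gene windows only.

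**Figure D5:**
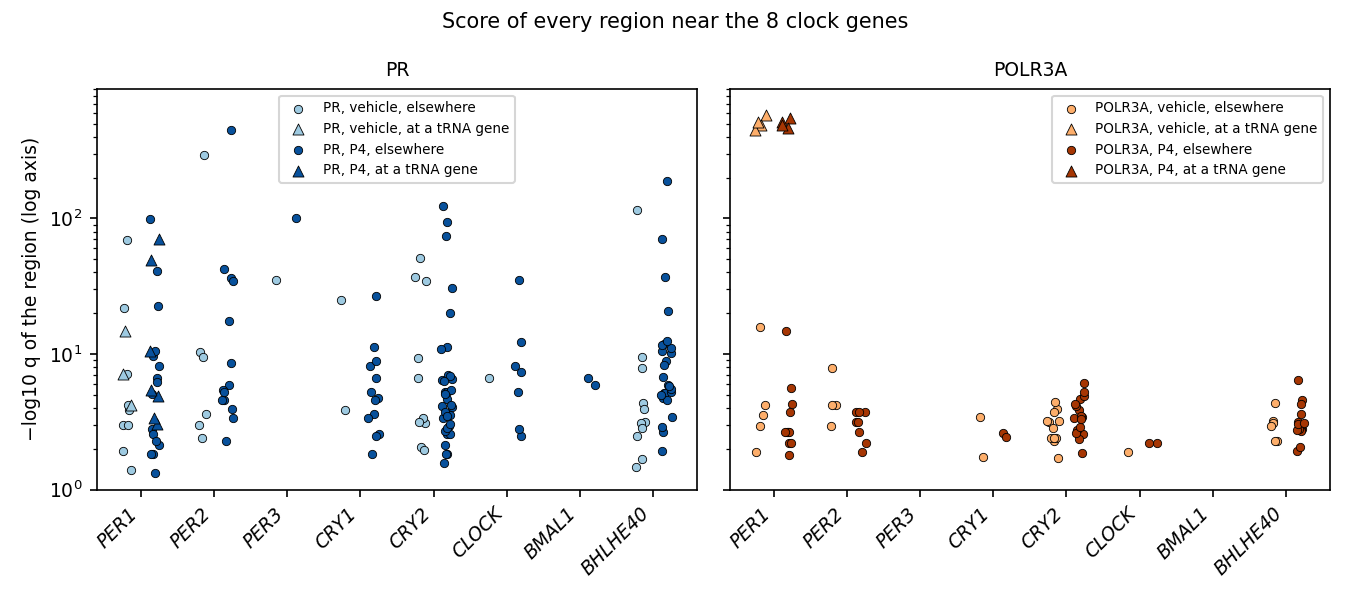
Score (−log10 q, log axis) of every PR (left) and POLR3A (right) region near each of the 8 genes, light for vehicle and dark for P4; triangles are regions at a tRNA gene, and horizontal scatter carries no value. The 4 POLR3A triangles per list, all at PER1, lie at 448 or above, and every POLR3A circle lies at 15.7 or below.

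Near the clock genes PR and POLR3A shared part of their regions. Of the POLR3A regions, 13 of 34 under vehicle overlapped a PR region, 38.2% (95% Wilson interval 23.9 to 55.0) against 32.3% of the whole list. Under P4 it was 32 of 58, 55.2% (42.5 to 67.3) against 50.5%. Seen from PR, 16 of 43 vehicle regions (37.2%) and 36 of 121 P4 regions (29.8%) overlapped POLR3A, against 24.2% and 20.9% of the whole lists. In these windows 11 PR regions of the P4 list overlapped regions of all 3 other lists. PER1 had 4 of them, all at tRNA genes, CRY2 and BHLHE40 had 3 each, and PER2 had 1, at its strongest PR region. The 7 outside PER1 were not at tRNA genes. The PER1 regions at TRQ-CTG1-5, TRL-TAG1-1 and TRR-TCT2-1 all lay on the same broad POLR3A region in each list. At PER2 and at the CRY2 regions inside the gene, the vehicle and P4 POLR3A regions did not overlap each other. No share over the whole PR P4 list is given here, so the count of 11 describes these windows only.

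The wider clock pathway was read from a list of 22 genes, among them its nuclear receptors, PAR-bZIP factors, kinases, ubiquitin ligase parts and further activators and repressors. PR regions lay near 21 of them under vehicle, NPAS2 being the exception, and near 22 under P4, against 74.6% and 90.5% of protein-coding genes. POLR3A regions lay near 17 under vehicle and 21 under P4, against 68.7% and 71.9%. FBXL21P, a pseudogene, had no POLR3A region in either list. The number above the coding median in density was 12 and 11 for PR and 11 and 14 for POLR3A of the 22. Among the densest for PR under P4 was CSNK1D, a kinase of the period proteins, with 14 PR regions under vehicle and 38 under P4. CIART, a repressor of CLOCK and BMAL1, had 7 and 22, and its strongest PR region scored 116 under vehicle and 273 under P4. None of the 22 windows held a tRNA gene, which 1.78% of protein-coding genes had nearby.

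The coding genes most like PER1 in the density of regions had no tRNA genes nearby, as is usual for coding genes. Likeness was the Euclidean distance over log2(regions per 100 kb + 1) in the 4 lists, among coding genes whose windows do not touch those of the clock genes. The nearest was LOC124903766 on chromosome 16 (distance 0.12), with 10 and 21 PR regions under vehicle and P4, and 8 and 14 POLR3A regions. RAB1B on chromosome 11 (0.15), a small GTPase of membrane traffic, had 11 and 22 PR and 8 and 14 POLR3A regions. NCKAP5L on chromosome 12 (0.17) had 13 and 28 PR and 11 and 18 POLR3A regions. All 3 had 0 tRNA genes in their windows, against 11 at PER1. Only 1.78% of all protein-coding genes had at least 1, so 0 was the usual count. Whether the tRNA genes bear on the density at PER1 was not tested.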

How the data were processed

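PR and POLR3A ChIP-seq of T47D cells under vehicle or P4 came as 4 narrowPeak lists, 1 for each group of 3 replicates. Per the submitters' processing notes, cutadapt, Bowtie2, MACS2 and the build hg38 were used. Versions, control use, read filters and whether replicates were pooled are not given in the sources used here, and depth is unknown. The values are the authors' own. The deposited fold enrichment is a ratio, and the deposited −log10 q-value is the score used here. Every region had a q-value of at most 0.0497. Both values describe and rank regions within a list. Vehicle and P4 values are set side by side, but with depth unknown a difference between them is not read as a change.

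The members, lists and thresholds were chosen with earlier results of these data known. Windows were gene spans of the RefSeq GRCh38.p14 table (59003 genes used, 429 nuclear tRNA genes) with 50 kb on either side. Strand and starts came from the RefSeq promoter table. Regions counted as overlapping from 1 bp, and as at a tRNA gene within 100 bp. No test was run, since each group has 1 list, and counts stand beside the same count over all protein-coding genes. Intervals are 95% Wilson intervals and cover counting error only. They treat regions as independent, though the regions share 8 windows, so they are no test against the whole lists. Named genes were the 8 members, every tRNA gene in their windows, the genes holding the strongest regions, the 3 pathway genes densest in PR regions under P4, and the 3 coding genes most like PER1. Some pathway genes are not reported here by name. Alternatives were stricter q-values, equal list lengths, other flanks, other tRNA margins and 50% reciprocal overlap. The counting code was tested on simulated data. Python 3.11.15, pandas 2.3.3, numpy 2.4.6 and matplotlib 3.10.9 were used. The pooled inputs were not analysed here.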

Additional observations from a re-analysis of the deposited data

How the results depend on the processing

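No paired analysis was possible because the 3 replicates of each group share 1 list, and for the same reason no replicate could be left out. Of 100 alternative values for the main counts, 41 stayed within 1.5 times, 58 moved further and 1 reversed; alternatives for the differences between lists and for tRNA genes reached were added after seeing the data. PR regions under vehicle (43) fell to 19 at a score of at least 5, 11 at 10, 28 within 10 kb and 18 in the gene span alone. PR regions under P4 (121) came to 71, 34, 61 and 39, with 43 at equal list length and 185 within 100 kb. The P4 minus vehicle difference for PR (78) came to 23 at a score of 10, 0 at equal length, 33 within 10 kb, 21 in the span and 121 within 100 kb. PR P4 regions with a vehicle counterpart (39) came to 17 at a score of 5, 11 at 10, 25 within 10 kb, 17 in the span and 22 with 50% reciprocal overlap. POLR3A regions under vehicle (34) came to 6, 5, 15 and 10 at a score of 5, of 10, within 10 kb and in the span. POLR3A regions under P4 (58) came to 9, 5, 26 and 13, and to 32 at equal length. The P4 minus vehicle difference for POLR3A (24) came to 3, 0, 11 and 3, and reversed to -2 at equal length. POLR3A P4 regions with a counterpart (14) came to 5, 5, 7 and 2, to 8 at equal length and to 8 with reciprocal overlap. POLR3A regions at tRNA genes (4 in each list) came to 1 in each within 10 kb and 0 in each in the span. POLR3A regions overlapping PR under vehicle (13) came to 2 at a score of 5, 1 at 10, 5 in the span and 6 with reciprocal overlap. Under P4 (32) they came to 6, 2, 13 within 10 kb, 7 in the span, 8 at equal length and 14 with reciprocal overlap. Of the 11 tRNA genes near PER1, PR reached 1 under vehicle at a score of 10 (5 as reported), and under P4 (8 as reported) 5 at a score of 5, 4 at 10, 4 at equal length and 5 with no margin; POLR3A reached 11 under every alternative for both lists. For PER1, PR regions (12 under vehicle, 23 under P4) came to 5 and 13 at a score of 5, 3 and 7 at 10, 17 and 41 within 100 kb, 5 and 5 within 10 kb, and 2 and 1 in the span, where the order turned. POLR3A regions for PER1 (9 and 15) came to 5 and 6, 5 and 5, 15 and 21, 1 and 4, and 0 and 0 under those settings.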

Other observations

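A second group of tRNA genes lay just beyond the PER1 window, 68.5 to 74.6 kb upstream of the gene's 5′ end. It held 7 tRNA genes: TRW-CCA1-1, TRG-TCC3-1, TRD-GTC2-11, TRP-CGG1-3, TRT-AGT1-2, TRS-AGA2-6 and TRI-AAT4-1. The last 3 of these lie in CTC1. POLR3A regions reached 7 of 7 in both lists, with a score of 488 under vehicle and 535 under P4 on the first 4 genes, and of 249.96 and 289 on the last 3. PR regions reached 0 of the 7 under vehicle and 3 under P4 (TRG-TCC3-1, TRD-GTC2-11 and TRP-CGG1-3), with scores of at most 4.87. They reached the bases beside the 3 genes and not the genes themselves. Over all 429 nuclear tRNA genes the shares reached were 82.3% under vehicle and 81.8% under P4 for POLR3A, and 12.8% and 26.1% for PR, whose P4 list is the longer.

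Among the other clock pathway genes, TEF, a PAR-bZIP factor, was singled out after its values were seen. The vehicle list held 3 PR regions near it and the P4 list 9, with highest scores of 136 and 195.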
